A study of Homo sapiens with 6 samples.

Results

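ATP-dependent chromatin remodelers are enzymes that use the energy of ATP to slide, evict or exchange nucleosomes. The genes described here were chosen by name as subunits of the SWI/SNF, ISWI, CHD, NuRD and INO80/SRCAP complexes, with the related ATPase gene HELLS. All 55 chosen symbols were found among the 19977 symbols of the table. RNA was taken at 48 hours from transfected U2OS cells, an established line from a human bone tumour. The siRNA was either a control with no target (siCtrl) or directed at NUDT5 (siNUDT5). There were 3 libraries in each of 2 groups, and the labels mark all 6 as untreated, that is, without further treatment beyond the siRNA. The siRNA sequences were not used here. The labels do not tie the libraries to separate cultures. The p-values thus rest on library-to-library spread, which may be technical. Values are TPM, an abundance unit corrected for the length of each transcript and scaled to the same total in every library. Differences between libraries can thus also come from base composition or from the scaling, as described below.

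NUDT5, an enzyme of the NUDIX family, breaks down ADP-ribose and has been described as a nuclear source of ATP when poly(ADP-ribose) is broken down. Remodelers are among the large consumers of ATP in the nucleus, and one of them, CHD1L (also called ALC1), is switched on by poly(ADP-ribose) through its macro domain. Each remodeling complex is built around an ATPase of the SNF2 family, and the accessory subunits decide where it binds and what it does to the nucleosome. Many subunits come in paralogs that compete for the same position in a complex. The comparison asks whether the mRNAs of this machinery change when NUDT5 is lowered. Accessibility data were not analysed here.

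The control libraries held 46.2, 49.0 and 52.0 TPM of NUDT5 mRNA, and the siNUDT5 libraries 3.04, 2.74 and 2.67 TPM. The siNUDT5 mean was 5.74% of the control mean, and an exact two-sided permutation test gave p = 0.1, its lower limit with 3 libraries a group. Of 14 marker genes listed for the cell type 13 were measured. The mesenchymal and bone genes VIM (3028 to 3589 TPM), SPARC (701 to 824 TPM), COL1A1 (318 to 460 TPM), CDH2 (92.0 to 129 TPM) and RUNX2 (7.58 to 13.4 TPM) were present, and COL1A2 was near 0 (0.042 to 0.393 TPM). Of genes of other cell types, CD3E and HBB were listed at 0, KRT5, PTPRC and VWF stayed at or under 0.420 TPM, CDH1 was at 1.82 to 2.44 TPM and EPCAM at 5.10 to 12.8 TPM. EPCAM was lower in siNUDT5 (limma adjusted p = 0.0271), and its part in the results was not tested. Relative depth, read from the steps of low values, was 64.1% of siCtrl 1 in siCtrl 2 and 89.4% to 118% in the other 4 libraries.

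siCtrl 2 stood apart from the other controls, and its distance followed base composition. Among the 54 remodeler genes tested, siCtrl 2 was the highest control in 23, the lowest in 25 and between the others in 6. Across these 54 genes the deviation of siCtrl 2 from the mean of siCtrl 1 and siCtrl 3 correlated with the GC content of the transcript at r = -0.90, a description across genes that share these libraries. Over 12053 tested genes with a GC value r was -0.81. The 28 remodeler genes in which siCtrl 2 was above that mean had a median GC content of 44.1%, and the 26 in which it was below had 55.7%. In 36 of the 54 genes the deviation of siCtrl 2 was larger than the difference between the groups, as it was in 7357 of all 12236 tested genes. siCtrl 2 was the highest or lowest control in 88.9% of the remodeler genes and in 89.8% of all tested genes. The results are therefore given with all libraries, without siCtrl 2, and with each library's trend against GC content subtracted. The GC adjustment was chosen after seeing the data, and it also removes any difference between the groups that runs with GC content.

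**Figure D1:**
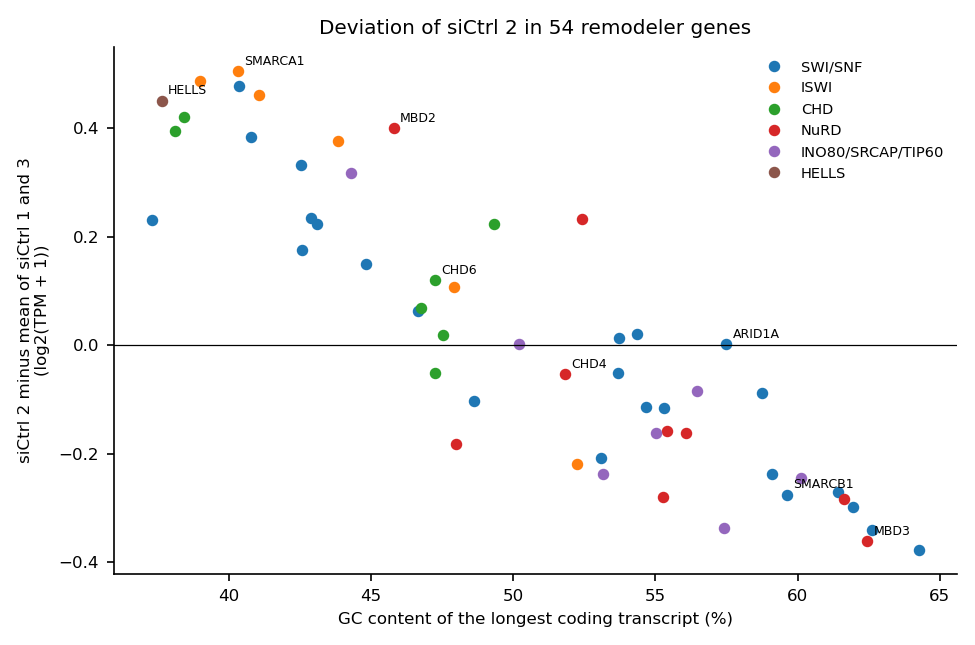
Deviation of siCtrl 2 from the mean of siCtrl 1 and siCtrl 3, on the log2(TPM + 1) scale (vertical axis), against the GC content of the longest coding transcript in percent (horizontal axis), 1 point for each of 54 remodeler genes, coloured by family. The points fall from left to right (r = -0.90), with SMARCA1 and HELLS high at low GC content and MBD3 low at high GC content.

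Few remodeler genes passed the threshold, which does not show that the others were unchanged. With all libraries CHD6 rose and ARID1A fell, and the other 52 of 54 tested genes stayed above 0.05 in Benjamini-Hochberg adjusted p. The test was limma, two-sided, on log2(TPM + 1) of the 12236 genes that averaged 1 TPM or more. In bulk RNA a lower level from fewer cells of a kind and from less RNA per cell cannot be told apart. The calls were 3.70% of the members, while 16.1% of all tested genes passed. Of all tested genes 10.9% passed as higher and 5.2% as lower. At an unadjusted p under 0.05 the members numbered 9 (16.7%) and all genes 3795 (31.0%). ACTL6B, the actin-like subunit of neuronal SWI/SNF, was listed at 0 in all 6 libraries and is the member that was not tested. The changes were also small. Log2 changes of the members ran from -0.30 to 0.38 with a median of 0.11, where all tested genes had a median of 0.05, and 38 of 54 were above 0, against 57.7% of all tested genes. With median-ratio scaling the median of the members was 0.05 and that of all genes -0.0049. The split of all calls moved with the scaling, from 1334 higher and 636 lower to 1034 and 904 with median-ratio scaling and 1018 and 965 with quantile normalization.

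The intervals describe the precision of each gene in the fit with all libraries, and the estimates moved between fits. In all 54 tested members the 95% interval of the log2 change lay within a 2-fold change of TPM + 1 in either direction, and in 50 within 1.5-fold. For a low gene such as DPF3 (siCtrl mean 1.26 TPM) the matching change in TPM itself is larger. The 4 with wider intervals were SMARCD3, BCL7C, CHD6 and HELLS. In 19 members every siNUDT5 library lay above (17) or below (2) every siCtrl library, which is 35.2% of the members and close to the 37.3% of all tested genes. Higher and lower separation made up 24.3% and 12.9% of all tested genes. Without siCtrl 2, 9 members rose and 2 fell, where 21.8% and 9.29% of all genes did. With the GC adjustment 6 rose and 8 fell, where 20.8% and 19.9% of all genes did. In these alternatives 20.4% and 25.9% of the members passed, against 31.1% and 40.8% of all genes. The 7 that passed in the same direction in both were CHD1, CHD6, CHD8, SMARCA2 and SMARCE1, which rose, and ARID1A and CHD1L, which fell. The share of all tested genes that passed in both was not counted. Both fits used siCtrl 1, siCtrl 3 and the same siNUDT5 libraries, so passing in both is not independent evidence. When siCtrl 3 or any 1 siNUDT5 library was left out no member passed, with 2 to 5 at an unadjusted p under 0.05 by limma. In those fits calls fell for all tested genes too, to between 6.26% and 7.01%. Without siCtrl 1 only BCL7C and GATAD2A passed, as higher, where 16.95% of all tested genes passed.

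**Figure D2:**
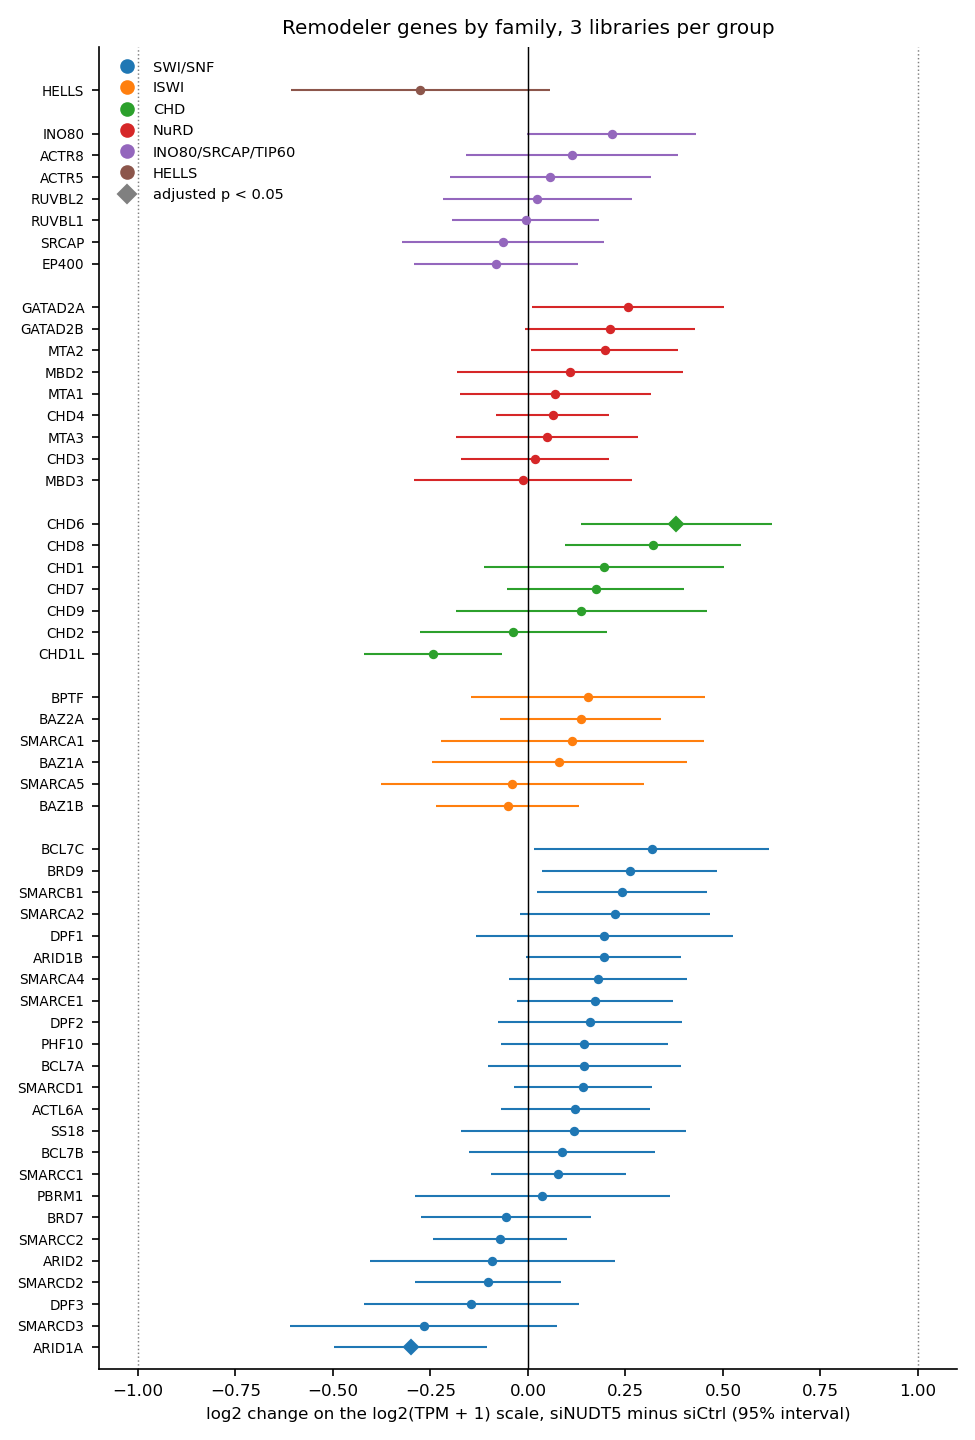
Log2 change of each tested remodeler gene, siNUDT5 minus siCtrl on the log2(TPM + 1) scale (horizontal axis), with its 95% interval from limma, grouped and coloured by family. Diamonds mark CHD6 (0.38) and ARID1A (-0.30), the genes with an adjusted p under 0.05, and every interval lies inside the dotted lines at a 2-fold change.

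SWI/SNF complexes slide and eject nucleosomes at promoters and enhancers and exist in 3 forms, canonical BAF, PBAF and non-canonical BAF. With all libraries 1 of their 24 tested genes passed, ARID1A, which was lower, and none passed as higher. The alternative ATPases are SMARCA4 (BRG1) and SMARCA2 (BRM). SMARCA4 stood at 47.8, 39.5 and 48.0 TPM in siCtrl and 51.7, 52.0 and 49.3 TPM in siNUDT5. SMARCA2 was lower, at 12.9, 15.5 and 13.1 TPM in siCtrl and 17.4, 15.7 and 15.7 TPM in siNUDT5. In both genes every siNUDT5 library was above every siCtrl library, but by little, and neither passed with all libraries (log2 changes 0.18 ± 0.0994 and 0.22 ± 0.107, standard errors, adjusted p = 0.259 and 0.198). SMARCA2 passed without siCtrl 2 (log2 change 0.30, adjusted p = 0.0282) and with the GC adjustment (0.23, adjusted p = 0.0103). SMARCA4 made up 76.4 ± 3.92% of the summed TPM of the pair in siCtrl and 75.8 ± 0.971% in siNUDT5 (SD over 3 libraries), a difference within the spread.

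ARID1A, a large DNA-binding subunit of canonical BAF and a gene often mutated in cancer, was the SWI/SNF gene that fell. The 3 siCtrl libraries held 40.8, 39.6 and 38.4 TPM of its mRNA, and the 3 siNUDT5 libraries 33.9, 31.9 and 30.2 TPM. The groups did not overlap, and siNUDT5 held 80.8% of the control level. The log2 change was -0.30 ± 0.0861 (standard error) with adjusted p = 0.0478, close to the threshold. It was -0.30 without siCtrl 2 (adjusted p = 0.0162) and -0.42 with the GC adjustment (adjusted p = 0.00158). The call was lost when any other library was left out, with adjusted p from 0.0910 to 0.191, while the log2 change stayed between -0.34 and -0.26.

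ARID1B, the paralog that takes the same place in BAF, went the other way in level without passing. It stood at 21.9, 22.3 and 22.2 TPM in siCtrl and 27.0, 24.8 and 24.7 TPM in siNUDT5 (log2 change 0.19 ± 0.0868, adjusted p = 0.169). ARID1A made up 65.1%, 64.0% and 63.3% of the summed TPM of ARID1A and ARID1B in siCtrl and 55.6%, 56.2% and 55.1% in siNUDT5. The means were 64.1 ± 0.882% and 55.6 ± 0.591% (SD, n = 3 each). This was the largest shift of share among the 12 sets of paralogs compared, and siCtrl 2 lay between the other controls. How often such shares separate in other gene sets was not computed.

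The annotated 3' UTR of ARID1A holds the word AAGACTT, 1 of 3 words of 7 bases searched on the transcript strand in GENCODE 29. The others were AGACTTA and the word GATTAAC. A match is a description of the sequence only. The words AAGACTT and AGACTTA, which overlap by 6 bases, had been picked because carriers ran lower in these same data, and GATTAAC because carriers ran higher, so their match with a change is no separate evidence. The sequences below are from the 3' UTRs of ARID1A, of its paralog ARID1B and of ANP32E, a gene described further on, and show the word in capitals with the bases beside it.
ARID1A: gcctacatagAAGACTTtttttatttt
ARID1B: tgtgttgctgAAGACTTaagctgttta
ANP32E: gataacttttAAGACTTatttagcttt
In the ARID1A 3' UTR of 1354 bases AAGACTT starts at base 275 and again at base 1347. ARID1B holds it at bases 8 and 5547 of 8292, and its level was not lower in siNUDT5. AAGACTT or AGACTTA was held by 12 of 54 tested members (22.2%) and by 22.4% of 11938 tested genes with a 3' UTR. The 12 members with either word had a median log2 change of 0.13 and the other members 0.10, while over all genes the medians were -0.01 with and 0.07 without. Of 59 other remodeling genes, described further on and with ANP32E among them, 18 (30.5%) held either word. Their median was -0.09, against 0.07 in the rest of that list. GATTAAC was held by SMARCA4, ARID2, PBRM1 and PHF10 (7.41%, against 6.19% of all genes), whose log2 changes ran from -0.09 to 0.18. CHD6 and CHD1L held none of the 3 words.

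None of the core subunits passed with all libraries. SMARCB1 (INI1), which grips the nucleosome's acidic patch, had the highest level of the family, at 278, 221 and 258 TPM in siCtrl and 294, 311 and 288 TPM in siNUDT5. Its groups did not overlap (log2 change 0.24 ± 0.0954, adjusted p = 0.126). SMARCC1 was at 152 ± 3.96 and 161 ± 8.33 TPM and its paralog SMARCC2 at 80.0 ± 1.58 and 76.1 ± 2.62 TPM in siCtrl and siNUDT5 (SD, n = 3 each), and the groups overlapped in each. The share of SMARCC1 in the summed TPM of the pair did not overlap, at 65.5 ± 0.575% in siCtrl and 67.8 ± 0.662% in siNUDT5. SMARCE1, a DNA-bending HMG-box subunit, passed without siCtrl 2 (log2 change 0.22, adjusted p = 0.0421) and with the GC adjustment (0.16, adjusted p = 0.0308), but not with all libraries (0.17, adjusted p = 0.219).

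The SMARCD subunits, which link the core to transcription factors, shifted against each other. SMARCD1 held 67.6 ± 0.148% of the summed TPM of the trio in siCtrl and 71.6 ± 0.637% in siNUDT5, SMARCD2 28.2 ± 0.306% and 25.2 ± 0.212%, and SMARCD3 4.19 ± 0.393% and 3.25 ± 0.543% (SD, n = 3 each). The groups did not overlap in any of these shares, which depend on each other because they add up to the whole. None of the 3 genes passed with all libraries. SMARCD2 (-0.23, adjusted p = 0.00849) and SMARCD3 (-0.42, adjusted p = 0.00965) fell with the GC adjustment and not without siCtrl 2 (adjusted p = 0.219 and 0.0597).

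None of the other subunits that define the forms of SWI/SNF passed with all libraries. In PBAF, PBRM1, a protein with many bromodomains, was at 46.7, 68.5 and 51.0 TPM in siCtrl and 61.0, 51.6 and 56.2 TPM in siNUDT5, and siCtrl 2 was the highest of the 6. ARID2, BRD7 and PHF10 had log2 changes of -0.09, -0.06 and 0.14 and adjusted p from 0.332 to 0.731. BRD9, the bromodomain subunit of non-canonical BAF, was above all controls in every siNUDT5 library (25.1 ± 2.26 and 30.2 ± 1.47 TPM) without passing (log2 change 0.26, adjusted p = 0.109). DPF2, a histone reader of canonical BAF, was at 66.2 ± 5.62 and 74.0 ± 7.27 TPM, and its tissue-restricted paralogs DPF1 and DPF3 were at 4.63 and 1.15 TPM over the 6 libraries. In the module that binds the ATPase, ACTL6A (194 ± 16.8 and 210.3 ± 5.12 TPM) and SS18 (28.3 ± 4.62 and 30.5 ± 1.84 TPM) had overlapping groups. BCL7C had the largest positive log2 change of the family, at 31.8, 22.2 and 26.7 TPM in siCtrl and 32.1, 35.8 and 32.4 TPM in siNUDT5 (log2 change 0.32 ± 0.132, adjusted p = 0.143). Its groups did not overlap, and it passed when siCtrl 1 was left out (0.44, adjusted p = 0.0356). BCL7A and BCL7B had log2 changes of 0.14 and 0.09.

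**Figure D3:**
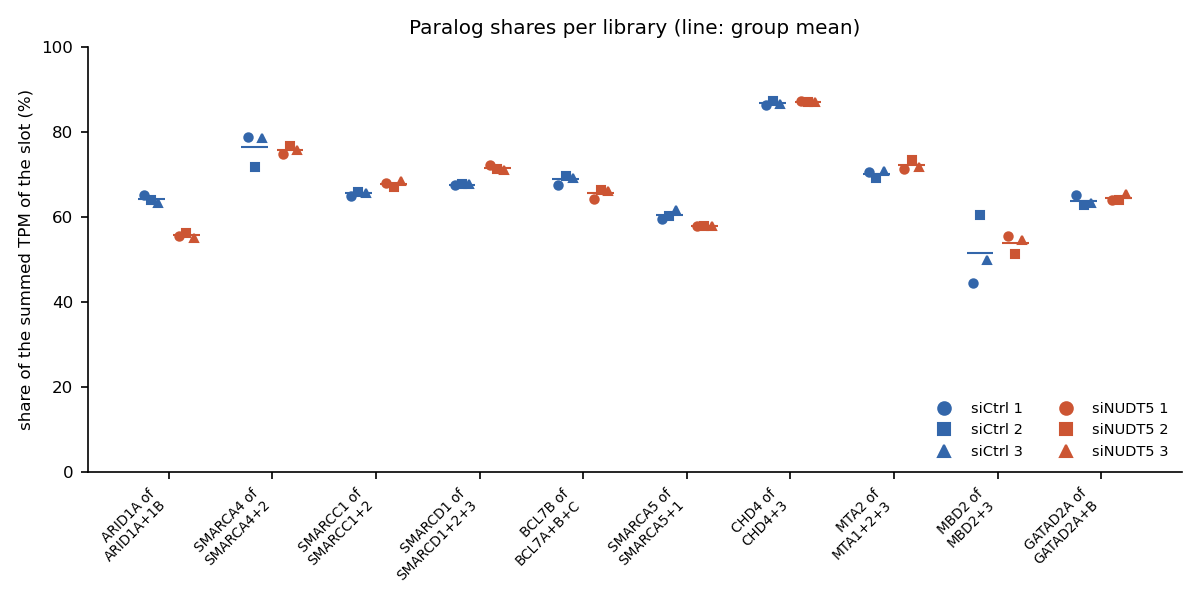
Share of 1 paralog in the summed TPM of its slot, in percent (vertical axis), for 10 slots of SWI/SNF, ISWI and NuRD (horizontal axis), 1 point per library with the group mean as a line. The ARID1A share falls from 64.1% to 55.6%. The groups also do not overlap for SMARCC1, SMARCD1 and MTA2, whose shares are higher in siNUDT5, and for BCL7B and SMARCA5, whose shares are lower. In the DPF slot, not drawn, the DPF3 share is lower without overlap. Among the genes whose shares separate, only ARID1A passed with all libraries. Of all tested genes 37.3% separate as single genes, and shares of other gene sets were not computed. For SMARCA4, CHD4, MBD2 and GATAD2A the groups overlap.

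ISWI complexes space nucleosomes evenly, and none of their 6 genes passed or had an unadjusted p under 0.05 (limma). The ATPase SMARCA5 (SNF2H), which joins several complexes, was at 55.7, 83.9 and 63.6 TPM in siCtrl and 71.3, 60.3 and 63.6 TPM in siNUDT5. The other ATPase, SMARCA1 (SNF2L), was at 37.7, 55.4 and 39.7 TPM and 51.8, 44.0 and 46.5 TPM. siCtrl 2 was the highest of the 6 libraries for both genes, and their groups overlapped (log2 changes -0.04 ± 0.147 and 0.11 ± 0.147, adjusted p = 0.889 and 0.651). SMARCA5 took 60.5 ± 0.990% of the pair in siCtrl and 57.8 ± 0.0868% in siNUDT5 (SD over 3 libraries), with no overlap. SMARCA1 passed without siCtrl 2 (log2 change 0.28, adjusted p = 0.0259) and not with the GC adjustment (0.13, adjusted p = 0.0688). BPTF, the histone-reading subunit of NURF, was at 26.2, 35.4 and 27.9 TPM in siCtrl and 36.8, 30.4 and 32.1 TPM in siNUDT5, with overlapping groups (log2 change 0.15 ± 0.131, adjusted p = 0.475). It too passed without siCtrl 2 (0.28, adjusted p = 0.0403) and not with the GC adjustment (0.15, adjusted p = 0.0827). BAZ1B, part of the WICH complex and the most abundant gene of the family, was at 128, 139 and 130 TPM in siCtrl and 136, 124 and 123 TPM in siNUDT5 (log2 change -0.05 ± 0.0797, adjusted p = 0.705). BAZ1A of the ACF complex and BAZ2A of the nucleolar complex NoRC had log2 changes of 0.08 and 0.14.

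The CHD family held the gene that rose and the gene nearest to passing among those that were lower. For CHD6, a chromodomain ATPase, the siCtrl libraries held 10.0, 11.3 and 10.5 TPM, and the siNUDT5 libraries 15.8, 13.6 and 13.1 TPM. The groups did not overlap, and the siNUDT5 mean was 133% of the control mean. The log2 change was 0.38 ± 0.107 (standard error) with adjusted p = 0.0456. It was 0.42 without siCtrl 2 (adjusted p = 0.00895) and 0.35 with the GC adjustment (adjusted p = 0.00322). The call was lost when any other library was left out, with adjusted p from 0.0883 to 0.173 and log2 changes from 0.30 to 0.43.

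CHD8, a chromodomain ATPase known as a regulator of WNT and p53 target genes, lay just outside the threshold. It stood at 31.1, 36.9 and 31.7 TPM in siCtrl and 44.3, 41.2 and 39.6 TPM in siNUDT5, with no overlap (log2 change 0.32 ± 0.0987, adjusted p = 0.0605). It passed without siCtrl 2 (0.40, adjusted p = 0.00299) and with the GC adjustment (0.27, adjusted p = 0.00826). CHD1, which acts on transcribed genes and binds methylated H3K4, passed in the same alternatives (0.33, adjusted p = 0.0192, and 0.22, adjusted p = 0.00396). With all libraries its groups overlapped, at 44.4, 62.1 and 49.7 TPM in siCtrl and 65.8, 53.7 and 58.7 TPM in siNUDT5, siCtrl 2 lying in the range of siNUDT5. CHD9 was at 12.7, 18.8 and 14.9 TPM in siCtrl and 18.3, 15.9 and 16.6 TPM in siNUDT5, with overlapping groups (log2 change 0.14 ± 0.141, adjusted p = 0.561). Of the 3 fits CHD9 passed in that with the GC adjustment (0.16, adjusted p = 0.0398). CHD7, the gene altered in CHARGE syndrome, was at 14.1, 15.2 and 15.96 TPM in siCtrl and 18.5, 16.98 and 16.05 TPM in siNUDT5. Its groups separated only narrowly (log2 change 0.17 ± 0.0993, adjusted p = 0.274). CHD2 was at 15.1, 16.9 and 17.01 TPM in siCtrl and 17.6, 15.4 and 14.7 TPM in siNUDT5, with overlapping groups (log2 change -0.04 ± 0.105, adjusted p = 0.849). Neither CHD7 nor CHD2 passed in any of the 3 fits.

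CHD1L, the remodeler that poly(ADP-ribose) activates, lay below all controls after siNUDT5. Its levels were 84.0, 80.7 and 83.3 TPM in siCtrl and 70.5, 72.3 and 66.3 TPM in siNUDT5, 84.3% of the control level. The log2 change of -0.24 ± 0.0774 did not pass with all libraries (adjusted p = 0.0663). It passed without siCtrl 2 (-0.26, adjusted p = 0.0165), with the GC adjustment (-0.28, adjusted p = 0.00382), with median-ratio scaling (-0.30, adjusted p = 0.0317) and with quantile normalization (-0.30, adjusted p = 0.0362). It did not pass when any other library was left out, with adjusted p from 0.115 to 0.243. Nor did it pass with replicate number as a block (adjusted p = 0.310), without the trend (0.0897) or without the low-value filter (0.0636). CHD1L and ARID1A were the members whose groups separated downward.

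**Figure D4:**
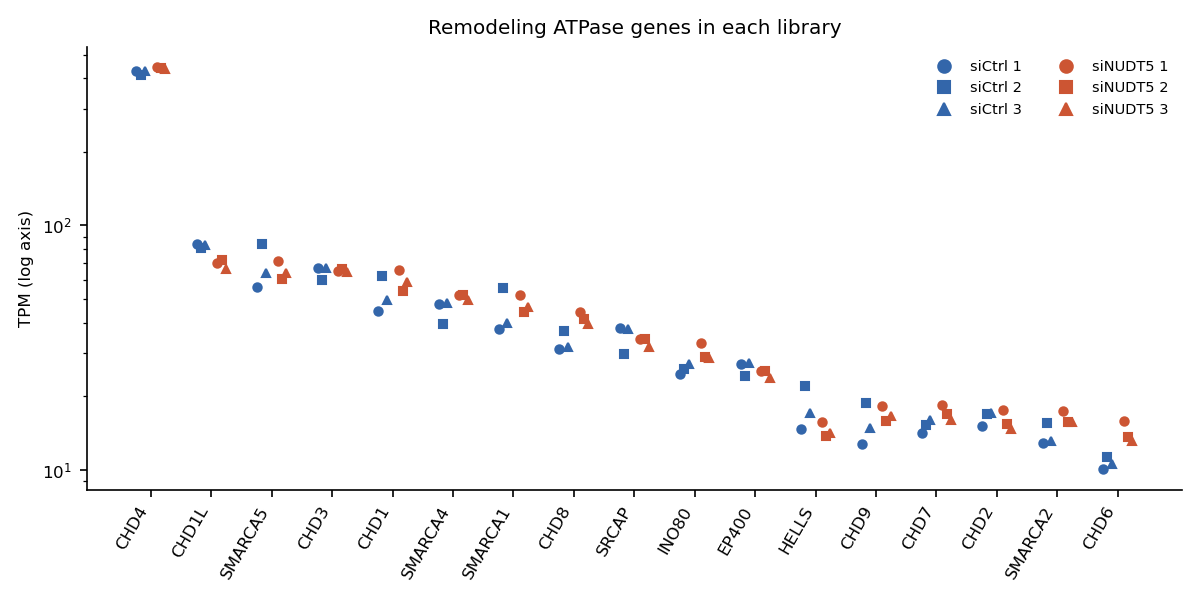
TPM of the 17 remodeling ATPase genes (log axis) in each library, ordered by their mean over the 6 libraries. CHD4 lies far above the rest at 411 to 444 TPM. The groups separate in 8 of the 17 genes (47.1%, against 37.3% of all tested genes), CHD1L and CHD6 among them. siCtrl 2 (blue squares) is the highest library for SMARCA5, SMARCA1, CHD9 and HELLS.

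NuRD joins a CHD-type ATPase to histone deacetylases, and none of its 9 listed genes passed, with 2 (MTA2 and GATAD2A) at an unadjusted p under 0.05 by limma. The ATPase CHD4 was the most abundant remodeler gene of all, at 427, 411 and 427 TPM in siCtrl and 444, 442 and 435 TPM in siNUDT5. The groups separated narrowly, with means of 421 ± 8.99 and 440.4 ± 5.14 TPM (SD, n = 3 each). The log2 change was 0.06 (95% interval -0.08 to 0.21), with a standard error of 0.0636 and adjusted p = 0.549, and it was -0.0038 with the GC adjustment. Its paralog CHD3 was at 67.1, 59.7 and 66.7 TPM in siCtrl and 65.3, 66.1 and 64.2 TPM in siNUDT5 (log2 change 0.02 ± 0.0827, adjusted p = 0.916), and the sign of this change turned with the scaling. CHD4 held 86.7% and 87.1% of the pair.

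Among the NuRD scaffold genes, MTA2 was the most abundant (129 ± 8.13 and 147 ± 7.26 TPM, log2 change 0.20, adjusted p = 0.145). MTA1 and MTA3 had log2 changes of 0.07 and 0.05. The GATA-type linker genes GATAD2A and GATAD2B were each above all controls in every siNUDT5 library, with log2 changes of 0.26 and 0.21 and adjusted p = 0.147 and 0.175. GATAD2A was at 53.0, 40.6 and 46.2 TPM in siCtrl and 57.4, 53.9 and 55.2 TPM in siNUDT5, with a standard error of 0.108. It passed when siCtrl 1 was left out (0.35, adjusted p = 0.0462). The alternative methyl-CpG-binding subunits are MBD2 and MBD3. MBD2, with a transcript of lower GC content, took 44.5%, 60.5% and 49.9% of the summed TPM of MBD2 and MBD3 in siCtrl 1 to 3, and 55.5%, 51.3% and 54.5% in siNUDT5 1 to 3. MBD2 passed as higher without siCtrl 2 (log2 change 0.24, adjusted p = 0.0422) and not with the GC adjustment (0.08, adjusted p = 0.378), whereas MBD3 fell with the GC adjustment (-0.17, adjusted p = 0.0168).

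INO80 slides nucleosomes and SRCAP and EP400 exchange H2A for the variant H2A.Z, and none of the 7 genes of this group passed or had an unadjusted p under 0.05 (limma). The ATPase gene INO80 was at 24.7, 25.9 and 27.0 TPM in siCtrl and 32.9, 29.02 and 28.6 TPM in siNUDT5, with no overlap (log2 change 0.21 ± 0.0947, adjusted p = 0.164). SRCAP was at 38.2, 29.9 and 37.8 TPM and 34.3, 34.4 and 31.8 TPM, and EP400 at 27.1, 24.3 and 27.4 TPM and 25.2, 25.3 and 23.6 TPM. Both overlapped with all libraries (log2 changes -0.06 ± 0.113 and -0.08 ± 0.0919, adjusted p = 0.745 and 0.597) and fell with the GC adjustment (-0.19, adjusted p = 0.0221, and -0.18, adjusted p = 0.0153). The AAA+ ATPases RUVBL1 and RUVBL2, which assemble these complexes, had overlapping groups. RUVBL2, the most abundant gene of the group, was at 119, 101 and 120 TPM in siCtrl and 107, 129 and 109 TPM in siNUDT5 (log2 change 0.02 ± 0.106, adjusted p = 0.909), and the sign of its change turned with the scaling. RUVBL1 averaged 92.8 TPM over the 6 libraries with a log2 change of -0.01. ACTR5 and ACTR8, actin-related subunits of INO80, had log2 changes of 0.06 and 0.11.

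HELLS (LSH), a remodeler that helps DNA methylation in heterochromatin, was at 14.7, 22.1 and 17.1 TPM in siCtrl and 15.6, 13.8 and 14.1 TPM in siNUDT5. The groups overlapped through siCtrl 1 in TPM as deposited, and the highest value was that of siCtrl 2. With median-ratio scaling they did not overlap, at 15.4, 21.9 and 17.5 in siCtrl and 14.9, 13.5 and 14.2 in siNUDT5 (log2 change -0.33, adjusted p = 0.129). The log2 change was -0.28 ± 0.145 (adjusted p = 0.235). It was -0.13 without siCtrl 2 (adjusted p = 0.380) and -0.25 with the GC adjustment (adjusted p = 0.00694).

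Summed over their members, the complex families differed little between the groups. The SWI/SNF genes summed to 1450, 1439 and 1434 TPM in siCtrl and 1575, 1577 and 1520.4 TPM in siNUDT5, 108% of the control mean. The NuRD genes summed to 858, 804 and 845 TPM and 899, 904 and 874 TPM, 107% of the control mean. Both sums separated in TPM as deposited and overlapped after median-ratio scaling, where they were 104% and 103%. The sums for ISWI (374 ± 40.3 and 380.3 ± 25.0 TPM), CHD (226 ± 15.3 and 235 ± 13.8 TPM) and the INO80 group (350 ± 20.1 and 356 ± 17.7 TPM, SD, n = 3 each) overlapped under both scalings. In siCtrl the SWI/SNF genes, 25 in number, made up the largest sum and NuRD, with 9, the next.

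Other genes of remodeling complexes and of the SNF2 family were listed separately, and all 59 were tested. MORF4L1 and CECR2 rose and ANP32E fell, 5.08% of the list against 16.1% of all genes, and the list's median log2 change was -0.0026. MORF4L1 (MRG15), a chromodomain subunit of the TIP60 complex, stood at 169, 208 and 178 TPM in siCtrl and 432, 382 and 412 TPM in siNUDT5. Its log2 change of 1.14 ± 0.0965 (adjusted p = 0.000455) exceeded that of every member. It was 1.23 without siCtrl 2 and 1.15 with the GC adjustment. Near-identical copies of MORF4L1 exist, and how their shared reads were assigned is not stated, so its value is uncertain. Its 3' UTR held none of the 3 words.

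ANP32E, the chaperone that removes H2A.Z from nucleosomes, went from 199, 292 and 210 TPM in siCtrl to 120.3, 105 and 112 TPM in siNUDT5. Its log2 change was -1.03 ± 0.142 (adjusted p = 0.00303), -0.86 without siCtrl 2 and -0.99 with the GC adjustment. Its 3' UTR holds AAGACTT at base 1927 and AGACTTA at bases 241 and 1928 of 2274, as printed above for the first. H2AFZ, which encodes H2A.Z itself, was at 2000, 2098 and 2162 TPM in siCtrl and 1770, 1873 and 1794 TPM in siNUDT5. Its groups separated without passing (log2 change -0.20, adjusted p = 0.0607). CECR2, a partner of ISWI, rose: its siCtrl mean was 3.52 ± 0.353 TPM and its siNUDT5 mean 4.89 ± 0.250 TPM (SD over 3 libraries; log2 change 0.38, adjusted p = 0.0481), and the call was lost when siCtrl 1, siCtrl 3 or any 1 siNUDT5 library was left out (0.0783 to 0.161) and under median-ratio scaling (0.0695). The NuRD and ISWI histone-binding paralogs RBBP4 and RBBP7 lay on opposite sides, at 96.1 ± 8.25 and 79.8 ± 2.87 TPM and at 96.4 ± 8.79 and 117 ± 5.00 TPM, with adjusted p = 0.0801 and 0.0673. RBBP7 passed without siCtrl 2 (adjusted p = 0.00282), and with the GC adjustment RBBP4 fell (0.00339) and RBBP7 rose (0.000884). Without siCtrl 2, 7 of the 59 rose and 3 fell, and with the GC adjustment 7 rose and 14 fell. These are 16.9% and 35.6% of the list, below the 31.1% and 40.8% of all tested genes that passed in the same fits.

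**Figure D5:**
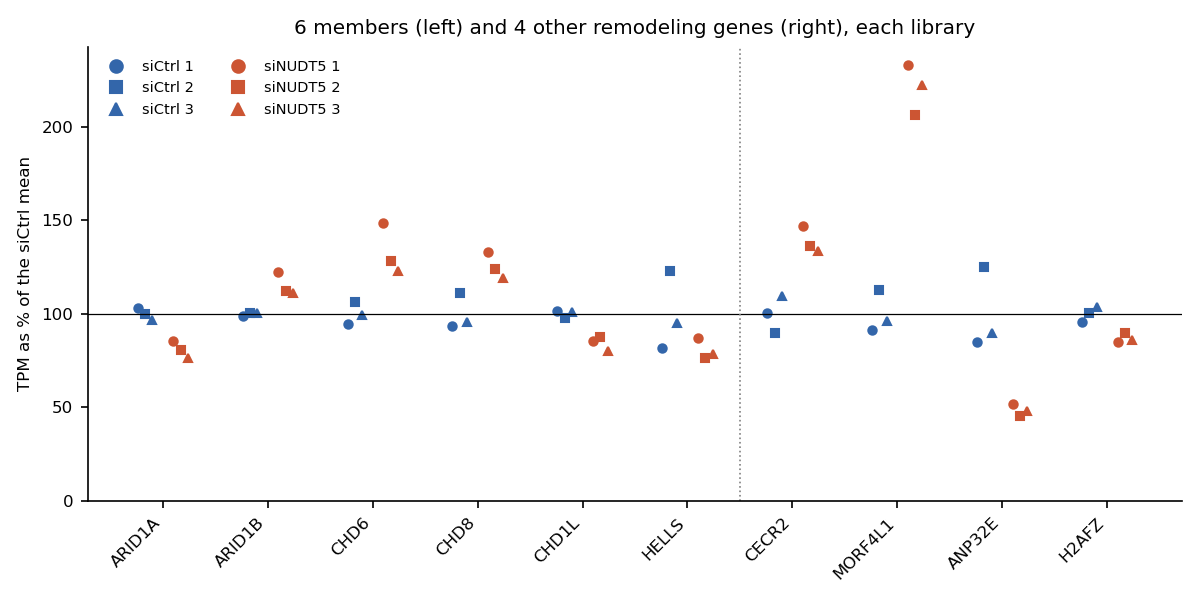
TPM of 6 members (left of the dotted line) and 4 other remodeling genes (right) in each library, as a percentage of the siCtrl mean of the gene. MORF4L1 has a siNUDT5 mean of 221% and ANP32E of 48.2%, while ARID1A and CHD1L lie below and CHD6 and CHD8 above the control libraries, with siNUDT5 means of 80.8%, 84.3%, 133% and 125%.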

How the data were processed

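RNA was measured in 6 U2OS libraries, 3 siCtrl and 3 siNUDT5, made with a strand-specific mRNA kit per the labels' protocols. The deposited table holds TPM per gene symbol, computed by the authors, and every library sums to the same total. Per the submitters' processing notes, the tools were STAR 2.7.3a and DESeq2 1.22.1 and the genome build hg19, with no role stated. The TPM method, the annotation and the handling of shared reads are not stated there. Coordinates are omitted, as the annotation and the table differ in build.

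Groups were taken from the sample titles. The members and lists were chosen with earlier results of these data known. The model was limma 3.58.1 in R 4.3.3 (lmFit, eBayes with a trend) on log2(TPM + 1) over the 12236 genes averaging 1 TPM or more, siNUDT5 minus siCtrl, two-sided, with Benjamini-Hochberg adjustment over all of them and a threshold of 0.05. It was tested on simulated data with the spread of each gene. There it recovered 36% of 100 genes changed by 0.5 in log2 and 98% of 100 changed by 1. Only these genes were changed, while 1970 genes passed in the data, and no error shared along GC content was simulated. The share recovered may thus differ from that in the data, and changes as small as those of the members may be missed. TPM carry no count, so no count model was run, and total depth is unknown. Relative depth came from genes under 0.3 TPM, where 72.0% to 81.5% of ratios to siCtrl 1 matched, to 0.1%, whole numbers no larger than 5. Every member could be named. Those given library by library include members past the threshold, the ATPases, and the highest and most changed gene of each family. Other remodeling genes were named when past the threshold, and H2AFZ, RBBP4 and RBBP7 were chosen after their values were seen.

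Transcript GC content and the longest 3' UTR of at least 50 bases came from GENCODE 29 by symbol (12053 and 11938 of the tested genes). The GC adjustment subtracted a lowess curve (span 0.3) from each library. The results were recomputed without the low-value filter or with one at 5 TPM, with pseudocounts of 0.1 or 5, after quantile normalization or median-ratio scaling, without the trend, with replicate number as a block and without each library. The GC adjustment, with and without the block, was added after seeing the data. Python 3.11.15, scipy 1.17.1 and matplotlib 3.10.9 were used.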

Additional observations from a re-analysis of the deposited data

How the results depend on the processing

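Every alternative listed under processing was run. Genes past the threshold numbered 739 with the replicate block and 766 to 3802 when 1 library was left out. They numbered 4912 with the GC adjustment and 3994 with that and the block, against 1970. The shares of all tested genes and of members that passed were 6.04% and 0% with the block and 9.81% and 0% without a filter. They were 15.7% and 1.85% without the trend, 40.8% and 25.9% with the GC adjustment, and 33.1% and 16.7% with that and the block. With median-ratio scaling they were 15.8% and 5.56%, and with quantile normalization 16.2% and 5.56%. When 1 library was left out 6.26% to 31.1% of all tested genes passed, and 0% to 20.4% of members. Members that rose numbered 0 without a filter (11 at an unadjusted p under 0.05 by limma) and with the block (2), 6 with the GC adjustment, 4 with that and the block, and 0 to 9 when 1 library was left out. Members that fell numbered 2 with median-ratio scaling or quantile normalization, 0 without a filter, without the trend (6 at an unadjusted p under 0.05) or with the block, 8 with the GC adjustment, 5 with that and the block, and 0 to 2 when 1 library was left out. Of the other remodeling genes 1 rose with the 5 TPM filter, no filter, median-ratio scaling, a pseudocount of 0.1, quantile normalization or the block, 7 with the GC adjustment with or without the block, and 1 to 7 when 1 library was left out. Those that fell numbered 3 with median-ratio scaling, 2 with quantile normalization, 14 with the GC adjustment, 11 with that and the block, and 1 to 3 when 1 library was left out. The summed siNUDT5 means became 1525 TPM for SWI/SNF and 874 TPM for NuRD with median-ratio scaling.

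None of the members whose log2 change is given here as turning sign passed with all libraries. CHD3 went to -0.039 with median-ratio scaling, -0.038 with quantile normalization and -0.093 with the GC adjustment with or without the block, and ran from -0.036 to 0.046 when 1 library was left out. CHD4 went to -0.0038 with the GC adjustment with or without the block. RUVBL2 went to -0.032 with median-ratio scaling, -0.020 with quantile normalization and -0.12 with the GC adjustment with or without the block, and ran from -0.058 to 0.072 when 1 library was left out. On leaving out 1 library CHD2 ran from -0.11 to 0.013 and SMARCA5 from -0.17 to 0.12. ARID2 (0.036) and BRD7 (0.018) turned without siCtrl 2, PBRM1 (-0.019) with median-ratio scaling, BCL7B (-0.046) with the GC adjustment, MTA1 (-0.024 and -0.080) and ACTR5 (-0.022 and -0.024) without siCtrl 2 and with the GC adjustment, and MTA3 with median-ratio scaling (-0.0058) and the GC adjustment (-0.025). The cause was not tested.

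Whether the replicate numbers pair the libraries is not known. Same-numbered libraries had correlations of deviations from their group means of -0.43, -0.54 and -0.04. These deviations also ran with GC content, so the correlations cannot decide the pairing. Where leaving out a library left 2 in a group, the test had fewer samples. Low members (DPF3, DPF1, SMARCD3) had changes that the pseudocount shrinks.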

Other observations

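The relation with GC content was not limited to siCtrl 2. Over 12053 genes the deviation of each library from the others of its group correlated with transcript GC content at r = 0.77 in siCtrl 1, 0.48 in siCtrl 3, -0.48 in siNUDT5 1, 0.57 in siNUDT5 2 and -0.10 in siNUDT5 3. The difference between the groups correlated at r = 0.21 over all these genes and at 0.0086 over the 54 members. These are descriptions across genes, which are not independent.

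Among the other remodeling genes, 7 passed as higher both without siCtrl 2 and with the GC adjustment, namely BAZ2B, BTAF1, CECR2, MBTD1, MORF4L1, RBBP7 and RSF1. ANP32E, H2AFZ and INO80B passed as lower in both. Here too the share of all tested genes that passed in both was not counted, and the fits share libraries.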
